A study of Mus musculus with 21 samples.

Results

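The 2′-5′-oligoadenylate synthetase (OAS) family was followed in the neocortex of rNLS8 mice, a model of TDP-43 proteinopathy, and of their control littermates. The family was taken as the 8 rows of the deposited count table with the symbols Oas1a, Oas1b, Oas1c, Oas1g, Oas2, Oas3, Oasl1 and Oasl2, out of 48474 rows in all. The members were chosen by their fold change between the genotypes, already known from the same libraries. For that reason the genotype difference of each member is given below as a description, without a p-value, and nothing is read from the number of members past a threshold.

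rNLS8 mice carry a tetracycline-controlled transactivator under the neurofilament heavy chain promoter (NEFH-tTA), which is active almost exclusively in neurons, together with a human TDP-43 transgene without its nuclear localization signal (tetO-hTDP-43ΔNLS). Doxycycline in the diet keeps the transgene off. The deposit held 10 rNLS8 mice, labelled TG, and 11 mice labelled WT, which the series describes as monogenic littermates without naming the transgene they carried. All 21 mice, controls included, had been injected intraventricularly when 17 to 19 weeks old with a control antisense oligonucleotide that has no target (350 µg in 10 µL), and stayed on 200 mg/kg doxycycline for a further 2 weeks. They were killed 3 weeks after doxycycline was withdrawn, and brains without oligonucleotide were not analysed here. The mice formed independent cohorts, A with 4 wild-type and 3 rNLS8 mice and B with 7 of each, which are entered as batches in the labels. Sex was not given. Mouse numbers below only name the animals within a genotype.

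OAS enzymes are sensors of double-stranded RNA. On binding it they join ATP into 2′-5′-linked oligoadenylates (2-5A), which act as second messengers of the antiviral response. Most family genes are classic targets of type I interferon. Secreted interferon signals through its receptor and JAK kinases, and the response element for this signal in promoters is the interferon-stimulated response element (ISRE). In the brain, microglia, astrocytes, endothelial cells and neurons can all respond to interferon. In mice the single OAS1 gene of humans is expanded into a tandem array, in which Oas1a and Oas1g encode active synthetases, whereas Oas1b lacks catalytic activity and in its full-length form protects against flaviviruses. Oas2 and Oas3 hold repeated synthetase units, and the OAS-like genes Oasl1 and Oasl2 add ubiquitin-like domains.

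All members lie on chromosome 5 of GRCm38.p6. The Oas1 genes, Oas2 and Oas3, 10 genes in all, occupied chr5:120730333-120921648, and Oasl1 and Oasl2 were neighbours at chr5:114896926-114937911. Oas1b (chr5:120812635-120824163, plus strand) was annotated by RefSeq as a transcribed pseudogene, and the other 7 members as protein-coding. The remaining genes of the Oas1 array were almost silent in this tissue, with 2 counts for Oas1d, 5 for Oas1e, 0 for Oas1f and 5 for Oas1h summed over all 21 mice. Transcripts of Oas1a (chr5:120896256-120907544, minus strand) and Oas1g (chr5:120876142-120887613, minus strand) had 730 stretches of 100 bases in common, which was 40.9% of those of Oas1a and 31.2% of those of Oas1g. Reads from these stretches could be counted on either gene, so the split between Oas1a and Oas1g is uncertain. The other 6 members shared no such stretch with another transcript. Oasl1 overlapped the antisense gene Gm13822, which had 2 counts in all mice together. Oas1c overlapped the antisense gene Gm43069 and Oas2 the gene Gm43068 on the other strand, neither of which has a row in the table used here, and without knowing the strand setting of the counting, reads from them cannot be told apart from those of Oas1c and Oas2.

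The promoters are shown here because the member with the same mean in both genotypes, Oas1c, shares a run of bases with Oas1a and Oas1g, which were higher in rNLS8 mice. RefSeq promoter sequences of GRCm38.p6, running from 250 bases before to 50 after the start, were matched for 6 of the 8 members. The exceptions were Oas1b and Oas2. The ISRE core, read as GAAA followed by any 2 bases and GAAA again and searched on both strands, was present in 4 of these 6 promoters (Oas1a, Oas1g, Oas1c and Oas3) and in 3.44% of the 32851 promoters of the table. Matches in the same promoter could overlap. The stretches of 100 bases around the matches are given 5′ to 3′ on the minus strand, which is the coding strand of all 4 genes, with the matching bases in capitals, and cover chr5:120907526-120907625 for Oas1a, chr5:120887614-120887713 for Oas1g, chr5:120812565-120812664 for Oas1c and chr5:120777680-120777779 for Oas3.
Oas1a: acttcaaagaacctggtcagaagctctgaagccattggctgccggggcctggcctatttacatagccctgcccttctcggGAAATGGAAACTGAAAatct
Oas1g: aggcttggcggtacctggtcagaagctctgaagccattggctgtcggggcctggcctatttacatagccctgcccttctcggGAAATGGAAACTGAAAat
Oas1c: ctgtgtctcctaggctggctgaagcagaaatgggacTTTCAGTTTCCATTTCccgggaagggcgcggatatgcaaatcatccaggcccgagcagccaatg
Oas3: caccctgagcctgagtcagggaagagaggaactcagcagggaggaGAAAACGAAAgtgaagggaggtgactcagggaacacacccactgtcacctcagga

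Oas1a and Oas1g carried the same run of 16 bases, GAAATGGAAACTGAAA, ending 5 and 3 bases before the starts used by the promoter table, and their promoters were identical at 261 of 306 aligned positions (85.3%). The same run was found in 7 of the 32851 promoters, belonging to Oas1a, Oas1g, Oas1c, Apol9a and Apol9b. In Oas1c (chr5:120800194-120812540, minus strand) it lay on the opposite strand, between 114 and 99 bases before the promoter table's start. For Oas1a, Oas1c and Oas3 that start lies inside the outer gene bound given here. The outer bound of Oas1a fell within its run, which covered chr5:120907530-120907545. Counted from the outer bound of Oas1c, the run of Oas1c lay 73 bases before the gene. It ended 7 bases before the annotated bound of Oas1b, which is transcribed in the other direction from 95 bases beyond the bound of Oas1c. Oas3 (chr5:120753098-120777684, minus strand) held a single match, GAAAACGAAA, between 75 and 66 bases before the promoter table's start. No match was found in the windows of Oasl1 and Oasl2. With 1 mismatch allowed, all 6 member promoters held the core, as did 35.4% of all promoters. These matches describe letters in the reference sequence and not binding.

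Total gene counts ran from 20700912 to 22263809 per library, and 3 counts corresponded to 0.135 to 0.145 CPM, meaning counts relative to the library total. Values below are normalized counts, which are counts scaled to a common library size by edgeR's TMM factors. Marker sums in CPM and log2 CPM values use library sizes scaled by these factors, whereas the family CPM uses the library total. The gene Tardbp, whose mouse row may take up reads of the human transgene as far as they align, had 2253 to 2827 normalized counts in wild-type mice and 4405 to 5053 in the 7 rNLS8 mice of cohort B. The 3 rNLS8 mice of cohort A were at 2363, 2903 and 3091, overlapping the wild-type range, so Tardbp did not separate the genotypes there and did not check the labels of those mice. The neocortical marker Tbr1 had means of 2642 normalized counts in wild-type and 2476 in rNLS8 mice.

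Family members were low in wild-type neocortex, with 106 to 194 counts for all 8 genes together per mouse (5.04 to 8.82 CPM). In rNLS8 mice the family had 337 to 2043 counts (15.9 to 96.2 CPM), so that every rNLS8 mouse was above every wild-type mouse. The members differed in how far they moved. Oasl2, Oasl1, Oas1a, Oas1b and Oas2 were higher in every rNLS8 mouse than in any wild-type mouse, Oas1g and Oas3 were higher in most, and Oas1c had the same mean in both genotypes. In bulk tissue, fewer cells of a type and less RNA per cell cannot be told apart.

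Among the OAS-like genes, Oasl2 gave the largest share of family counts in both genotypes. Oasl2 (chr5:114896926-114912245, plus strand), which encodes a synthetase with ubiquitin-like domains, ranged in wild-type mice from 53.2 to 113 normalized counts with a median of 65.2. In rNLS8 mice it ranged from 204 to 1206 with a median of 570.5. The genotypes did not overlap, and the lowest rNLS8 mouse lay apart from both the wild-type mice below it and the other rNLS8 mice above it. The means were 69.8 ± 16.2 (SD, n = 11) and 618 ± 263 (SD, n = 10), a log2 fold change of 3.14 (standard error 0.19). Oasl1 (chr5:114923143-114937911, plus strand), which lacks synthetase activity and restrains translation of the interferon regulator IRF7, had 1.06 to 9.39 normalized counts in wild-type mice with a median of 5.14. Its rNLS8 values ran from 16.7 to 70.9 with a median of 27.1. Again no rNLS8 mouse fell into the wild-type range, and 2 mice of cohort A stood above the remaining rNLS8 mice. The means of Oasl1 were 5.38 ± 2.79 (SD, n = 11) and 35.0 ± 17.9 (SD, n = 10), a log2 fold change of 2.68 (standard error 0.27).

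**Figure D1:**
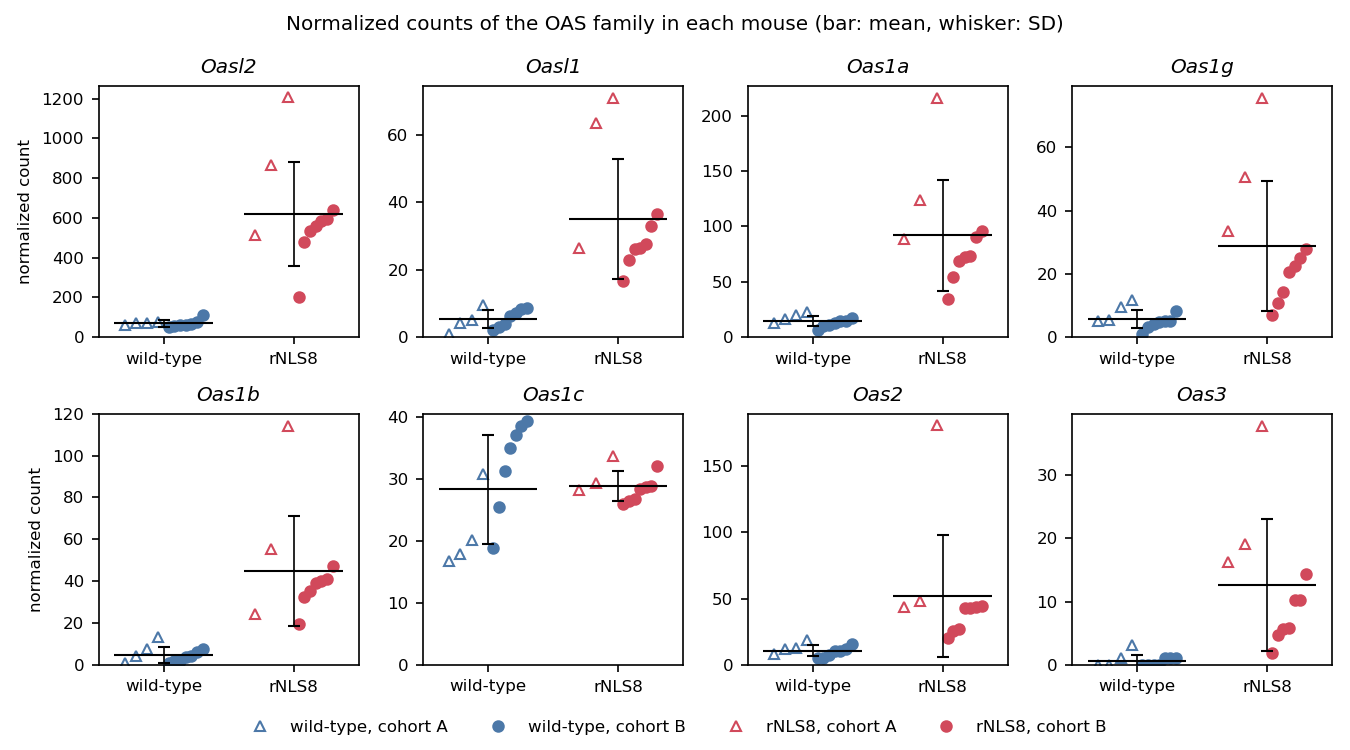
Normalized counts (y axis, linear from 0, own scale for each gene) of the 8 family members in each of 11 wild-type (blue) and 10 rNLS8 mice (red), with open triangles for cohort A and filled circles for cohort B, and with the mean as a bar and the SD as whiskers. Every rNLS8 point lies above every wild-type point for Oasl2, Oasl1, Oas1a, Oas1b and Oas2, and the rNLS8 points of Oas1c lie inside the wild-type range.

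In the Oas1 array, Oas1a, an active synthetase, had 6.22 to 23.2 normalized counts in wild-type mice with a median of 14.3. In rNLS8 mice its counts were 34.3 to 216 with a median of 81.2. The groups were separate, and the highest rNLS8 mouse had well over the count of any other. Its means were 14.4 ± 4.74 (SD, n = 11) and 91.9 ± 50.01 (SD, n = 10), a log2 fold change of 2.69 (standard error 0.20). The paralog Oas1g ranged from 1.04 to 11.7 in wild-type mice (median 5.14) and from 6.86 to 75.6 in rNLS8 mice (median 23.9). Here the groups overlapped, and the highest wild-type mouse was exceeded by 8 of 10 rNLS8 mice. The log2 fold change of Oas1g was 2.33 (standard error 0.27), from means of 5.75 ± 2.97 (SD, n = 11) to 28.8 ± 20.6 (SD, n = 10). Since Oas1a and Oas1g share sequence, their separate values carry the uncertainty named above.

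Oas1b and Oasl2 had the highest fitted fold changes of the tested members over all mice, and their order was not fixed, since Oasl2 was the higher in cohort A alone and without rNLS8 mouse 8 or wild-type mouse 1, 3 or 8. Wild-type mice had 1.03 to 13.4 normalized counts with a median of 4.07. Values in rNLS8 mice were 19.6 to 114 with a median of 39.6, and the groups did not overlap. The means were 4.81 ± 3.66 (SD, n = 11) and 44.9 ± 26.5 (SD, n = 10), a log2 fold change of 3.25 (standard error 0.31). Added over mice, 51 wild-type and 468 rNLS8 counts stand behind this value.

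Oas1c, for which synthetase activity is not established, was the exception in the family. It had 16.7 to 39.4 normalized counts in wild-type mice with a median of 30.8. In rNLS8 mice its counts were 26.0 to 33.7 with a median of 28.5. No rNLS8 mouse was above the wild-type range or below it, and the rNLS8 mice were more alike than the wild-type mice. The means were 28.3 ± 8.79 (SD, n = 11) and 28.8 ± 2.41 (SD, n = 10). Its log2 fold change was 0.02 (standard error 0.14), with a 95% interval from -0.27 to 0.32. Oas1b, which begins 95 bases from the annotated bound of Oas1c on the other strand, had a log2 fold change of 3.25 in the same libraries.

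The larger synthetases differed in abundance. Oas2 (chr5:120730333-120749886, minus strand) had 5.15 to 19.0 normalized counts in wild-type mice with a median of 10.4. Its rNLS8 values were 20.6 to 180.5 with a median of 43.4. The groups were narrowly apart, and rNLS8 mouse 8 of cohort A stood apart from the other 9, of which the highest had 48.4. The means were 10.7 ± 4.25 (SD, n = 11) and 52.0 ± 46.2 (SD, n = 10), a log2 fold change of 2.26 (standard error 0.28) that became 1.87 without that mouse. Oas3, the least abundant member, did not pass the filter on low counts and was not tested over all mice in the main fit. Fitted to all mice without the filter, its log2 fold change was 4.13 (standard error 0.45). Oas3 had 0 counts in 6 of 11 wild-type mice and at most 3, with a sum of 7. In rNLS8 mice it had 2 to 40 counts with a sum of 131, and 9 of 10 exceeded the highest wild-type mouse. At equal depth the ratio of these sums was 19.2, with an exact 95% interval of 9.04 to 48.6 that covers counting error only. Wild-type mouse 10 held 3 of the 7 wild-type counts, and without it the ratio was 30.5 (exact 95% interval 11.6 to 113).

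**Figure D2:**
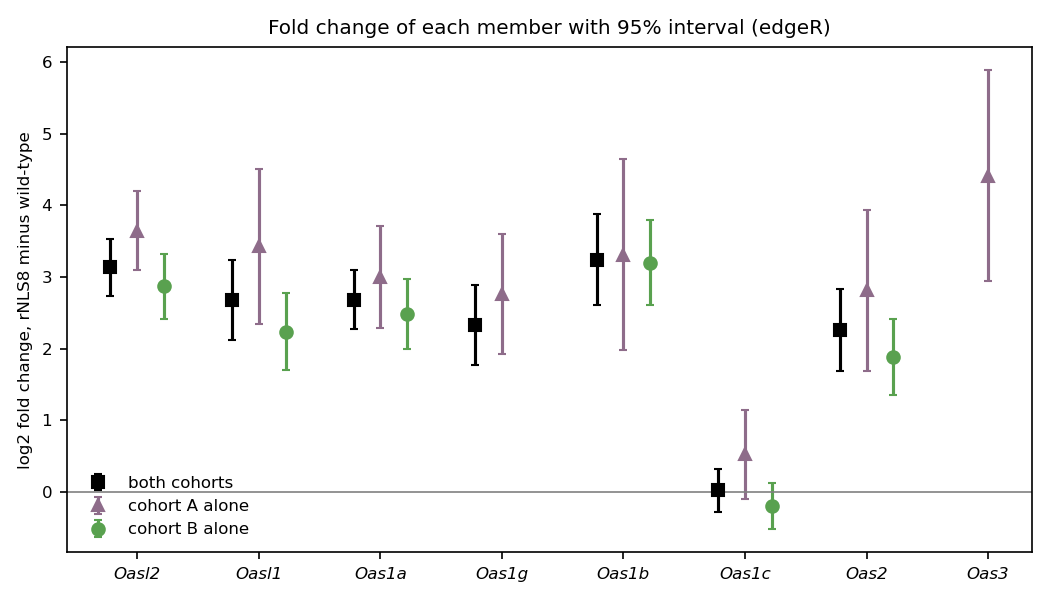
Log2 fold change of rNLS8 over wild-type mice (y axis) for each family member with its 95% interval from edgeR, fitted to both cohorts (black squares), to cohort A alone (purple triangles) and to cohort B alone (green circles). Of the members tested over both cohorts, Oas1c alone has an interval that includes 0, and the estimates in cohort A are higher than those in cohort B for each member that was tested in both.

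Of the 8 members, 7 passed the filter, and 6 of these had an adjusted p-value under 0.05 in edgeR's quasi-likelihood test, all higher in rNLS8 mice. By that rule 44.7% of the 18248 tested genes were called, 23.0% as higher and 21.7% as lower. A log2 fold change above 2 was found in 62 genes, which is 0.340% of those tested, and 6 of them were the members. Every rNLS8 mouse was above every wild-type mouse for 5 of the 8 members and for 3.85% of the tested genes, and the reverse held for 0 members and 3.80% of genes. Within cohort A the genotypes were separate for 7 members and 13.1% of genes, and within cohort B for 6 members and 8.34% of genes. Nothing is read from these shares, since this contrast was used to choose the members. Oas1b, Oas1g, Oas2 and Oasl1 reached the filter level in too few wild-type mice and passed through their rNLS8 values, and Oas3 did not pass, so the 7 tested genes are not the whole family.

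The make-up of the family also differed by genotype. Oasl2 contributed 49.6% ± 5.30 (SD, n = 11) of family counts in wild-type mice and 68.1% ± 3.57 (SD, n = 10) in rNLS8 mice. The contribution of Oas1c went from 20.5% ± 6.96 (SD, n = 11) to 3.75% ± 1.73 (SD, n = 10). Thus Oas1c went from the next most counted member after Oasl2 to a minor one without a change of its own mean. Oas1a held 10.3% ± 3.07 (SD, n = 11) in wild-type mice and 9.94% ± 1.33 (SD, n = 10) in rNLS8 mice, within the spread between mice.

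Levels were compared between genes as normalized counts per kilobase of the longest annotated transcript. In wild-type mice Oasl2 was highest at 22.3 ± 5.19 (SD, n = 11), followed by Oas1c at 12.4 ± 3.84 and Oas1a at 7.63 ± 2.51. Oasl2 was above Oas1c in 11 of 11 mice, and Oas1c was above Oas1a in 9 of 11. Behind Oas1a came Oas1g, Oas2, Oas1b and Oasl1, whose means lay between 2.91 and 2.47, and no neighbours among these 4 kept their order in all mice. Oas3 was lowest at 0.139 ± 0.201 (SD, n = 11).

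In rNLS8 mice the order per kilobase was Oasl2 at 198 ± 84.1 (SD, n = 10), Oas1a at 48.8 ± 26.5 and Oas1b at 24.4 ± 14.4, and each was above the next in 10 of 10 mice. Oas1b was also above Oasl1, at 16.0 ± 8.19, in 10 of 10. Oasl1 exceeded Oas1g, at 14.5 ± 10.4, in 6 of 10 mice, and Oas1g exceeded Oas2, at 13.1 ± 11.7, in 6 of 10, so these 3 were not ordered beyond the spread. Oas2 had a higher mean than Oas1c (12.6 ± 1.05) but was above it in 1 of 10 mice. Oas3 stayed lowest at 2.68 ± 2.20. Oasl2 was 4.06 times the next member, and this ratio became 1.99 when the combined exons of all transcripts were used as length.

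**Figure D3:**
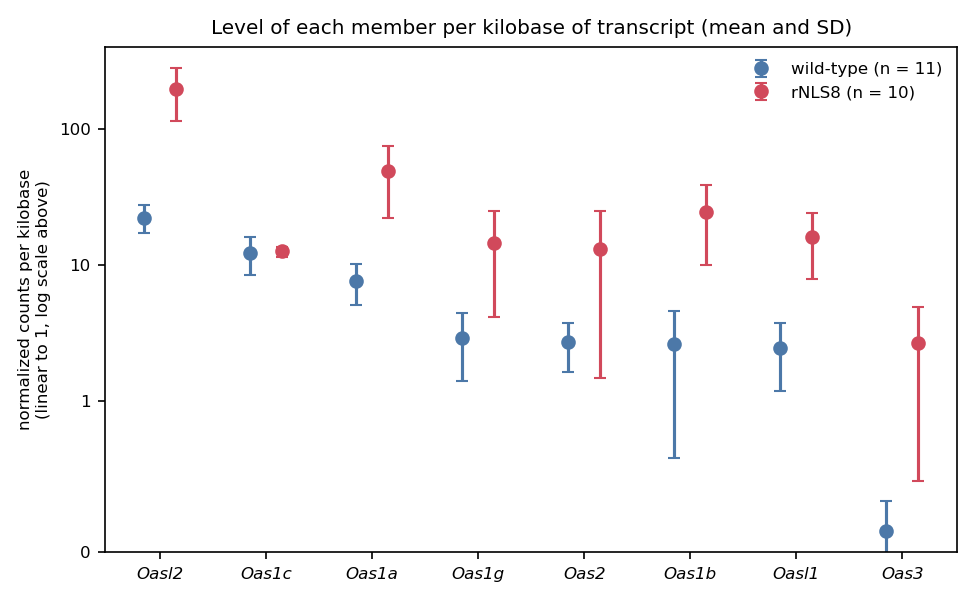
Normalized counts per kilobase of the longest transcript (y axis, linear up to 1 and logarithmic above) for each member, as mean and SD over 11 wild-type (blue) and 10 rNLS8 mice (red), ordered by the wild-type mean. Oasl2 is highest in both genotypes, Oas3 is lowest in both, and Oas1c is the only member whose points lie at the same level.

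Whether the genotype difference of the members depended on the cohort was tested with the interaction of genotype and cohort, which was not part of the choice of members. For Oasl2 the rNLS8 mice of cohort A had 516, 865 and 1206 normalized counts, and those of cohort B had 204 to 640.1 with a median of 557. Wild-type Oasl2 was alike in the cohorts, with means of 70.1 ± 5.71 (SD, n = 4) in A and 69.6 ± 20.5 (SD, n = 7) in B. The log2 fold change of Oasl2 was 3.64 (standard error 0.25) in cohort A and 2.87 (standard error 0.22) in cohort B. For Oasl1 the corresponding values were 3.43 (standard error 0.49) and 2.24 (standard error 0.26), and for Oas2 they were 2.81 (standard error 0.51) and 1.89 (standard error 0.25). Oas3 passed the filter in cohort A alone, where the estimate was 4.42 (standard error 0.67).

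All 7 tested members had a larger estimate in cohort A, compared with 50.6% of all tested genes. This became 5 of 7 without rNLS8 mouse 8 and 5 of 6 without wild-type mouse 11. The members other than Oas1c were high and low in the same rNLS8 mice, of which cohort A had 3. They are thus not independent observations of a cohort difference, and nothing is read from their number. None of the 7 passed the adjusted threshold of the interaction test in edgeR, nor did any other gene (0% of 18248), and 1 member had an unadjusted p under 0.05, compared with 5.64% of all genes. DESeq2 gave 0 members and 1 gene in all after adjustment, and 2 members before it. In edgeR the number of members with an unadjusted p under 0.05 was 0 to 3 on leaving out single mice, and 3 with no filter. The interval of the difference between cohorts was wide, for Oasl2 from -1.53 to 0.05 on the log2 scale (cohort B minus cohort A) and for Oasl1 from -2.34 to 0.03. These data thus neither showed a cohort difference of these members nor limited it to a small value.

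The member with the unadjusted p was Oas1c, whose difference between cohorts was -0.69 (standard error 0.28, unadjusted p = 0.0228, adjusted p = 0.853 in edgeR). Its log2 fold change was 0.52 in cohort A (95% interval -0.10 to 1.15) and -0.20 in cohort B (95% interval -0.52 to 0.12). The rNLS8 mice of the cohorts were alike, at 30.4 ± 2.87 (SD, n = 3) and 28.2 ± 2.05 (SD, n = 7) normalized counts. The wild-type mice were not, at 21.4 ± 6.44 (SD, n = 4) in A and 32.2 ± 7.64 (SD, n = 7) in B. Tested among wild-type mice alone, the estimate for Oas1c was 0.59 higher on the log2 scale in cohort B (standard error 0.24, unadjusted p = 0.0260, adjusted p = 0.143 in edgeR), so it did not pass the adjusted threshold. In that comparison 0 of 7 members and 7.66% of all genes passed, and 1 member and 24.7% of all genes had an unadjusted p under 0.05. The filter of that comparison used both genotypes, so Oas1b, Oas1g, Oas2 and Oasl1, which were low in wild-type mice, entered through their rNLS8 values. At such low counts a cohort difference could be missed, and nothing is read from the member counts. The unadjusted interaction p of Oas1c ranged from 0.00324 to 0.0619 over fits that each left out a single mouse, and exceeded 0.05 without wild-type mouse 8, wild-type mouse 9 or rNLS8 mouse 10.

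Within rNLS8 mice the members other than Oas1c were high and low in the same animals. Mouse 8 of cohort A was highest for all 7 of these members, and mouse 1 of cohort B was lowest for all 7. Mouse 9 of cohort A was next to mouse 8 in the mean of the members. The family had 96.2 CPM in mouse 8, 58.8 CPM in mouse 9 and 15.9 CPM in mouse 1, and between 33.1 and 44.2 CPM in the other 7. Without mice 1, 8 and 9 the log2 fold change was 2.99 for Oasl2, 2.94 for Oas1b, 2.53 for Oas1a, 2.35 for Oasl1, 2.11 for Oas1g, 1.93 for Oas2 and -0.01 for Oas1c.

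**Figure D4:**
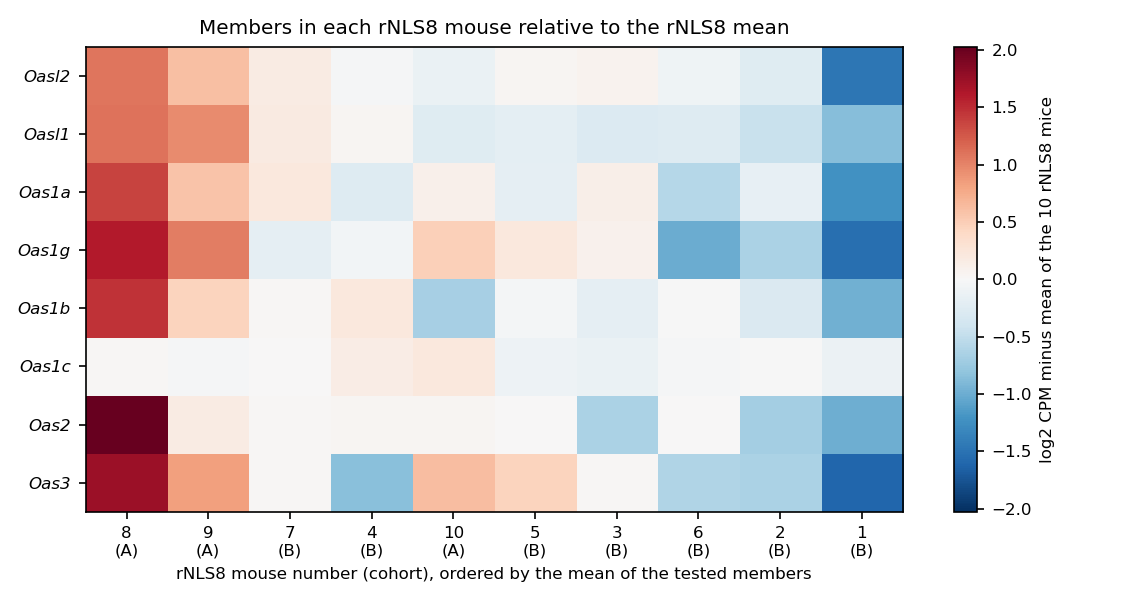
Level of each family member (rows) in the 10 rNLS8 mice (columns, named by mouse number with the cohort in parentheses and ordered by the mean of the tested members), as log2 CPM minus the mean over these 10 mice. Mouse 8 is red and mouse 1 is blue in each row other than Oas1c, which is nearly uniform.

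The correlation of each member with the mean of the others over the 10 rNLS8 mice, on the log2 CPM scale, was between Pearson 0.87 (Oas1b and Oas2) and 0.96 (Oas1a) for the 7 members, and 0.24 for Oas1c. Without the 2 mice farthest from the median it was between 0.37 (Oas1b) and 0.89 (Oasl2), and -0.01 for Oas1c. These values describe mice that share cohorts and library preparation, and counts of the low members carry sampling error. In the 11 wild-type mice, where most members had few counts, Pearson values ranged from -0.36 (Oas1c) to 0.67 (Oas1a).

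Among 14582 other genes with a mean of at least 50 counts, the 6 whose level followed the mean of the tested members most closely over the 10 rNLS8 mice were Rtp4 (Pearson 0.98, Spearman 0.87), Irgm1-3, Irgm1, Bst2, Tgtp2-2 and Irf9, where a suffix marks a further copy of a symbol in the deposited table. Without mice 1 and 8 their Pearson values were between 0.88 and 0.95. Rtp4, which encodes an interferon-inducible receptor transporter protein, went from 52.9 to 218 mean normalized counts, a log2 fold change of 2.04 (standard error 0.15). Irgm1, an immunity-related GTPase, went from 183 to 453, a log2 fold change of 1.31 (standard error 0.13).

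The other genes of the pathway were read from fixed lists, again chosen with earlier results of these data known, so their counts are no independent evidence. Over all tested genes 44.7% were called, 23.0% as higher and 21.7% as lower, and the counts of each list stand beside those shares. The named genes of the 2-5A list differed little by genotype. Pde12, a phosphodiesterase that degrades 2-5A, rose by 0.22 on the log2 scale (adjusted p = 0.0151 in edgeR). Abce1, an ATP-binding cassette protein of ribosome recycling, fell by 0.09 (adjusted p = 0.0387 in edgeR), a call that was lost in many alternatives. Akap7, which can also cleave 2-5A, had a log2 fold change of 0.00 (95% interval -0.10 to 0.09).

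Of the 9 genes that sense RNA or relay that signal, 6 rose and 0 fell, with a median log2 fold change of 0.83 compared with 0.00 over all tested genes. Zbp1, a sensor of Z-form nucleic acids, went from 3.00 ± 2.13 (SD, n = 11) to 34.8 ± 17.7 (SD, n = 10) normalized counts, which was 3.49 on the log2 scale (adjusted p = 1.48e-09 in edgeR). Dhx58 (LGP2) rose by 1.67, Ddx58 (RIG-I) by 1.47 and Eif2ak2 (PKR), which senses double-stranded RNA as OAS does, by 1.31. Of the cyclic dinucleotide pathway, neither Cgas (adjusted p = 0.0981 in edgeR) nor Sting1 (adjusted p = 0.123) passed the threshold.

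Of 12 genes of interferon signalling, 7 rose and 1 fell, with a median log2 fold change of 0.31. Irf7, the regulator that amplifies interferon production, rose from 49.6 ± 12.9 (SD, n = 11) to 464 ± 225 (SD, n = 10) normalized counts, which was 3.21 on the log2 scale (adjusted p = 6.27e-12 in edgeR). Usp18, which restrains the interferon receptor, rose by 2.97 and Irf9 by 1.84. All 12 other interferon-stimulated genes of the list rose, with log2 fold changes from 0.49 to 3.23 and a median of 2.55. Mx1 (3.23) and Isg15 (3.17) were close to Oas1b and Oasl2 in this estimate, and Ifit1 (3.04) and Ifit3 (2.73) to Oasl2 and Oas1a. The interferons themselves were near the limit of detection, with 6 counts in total over 20 genes and 21 mice. These 6 counts were all in rNLS8 mice, and 15 of the 20 genes had none.

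**Figure D5:**
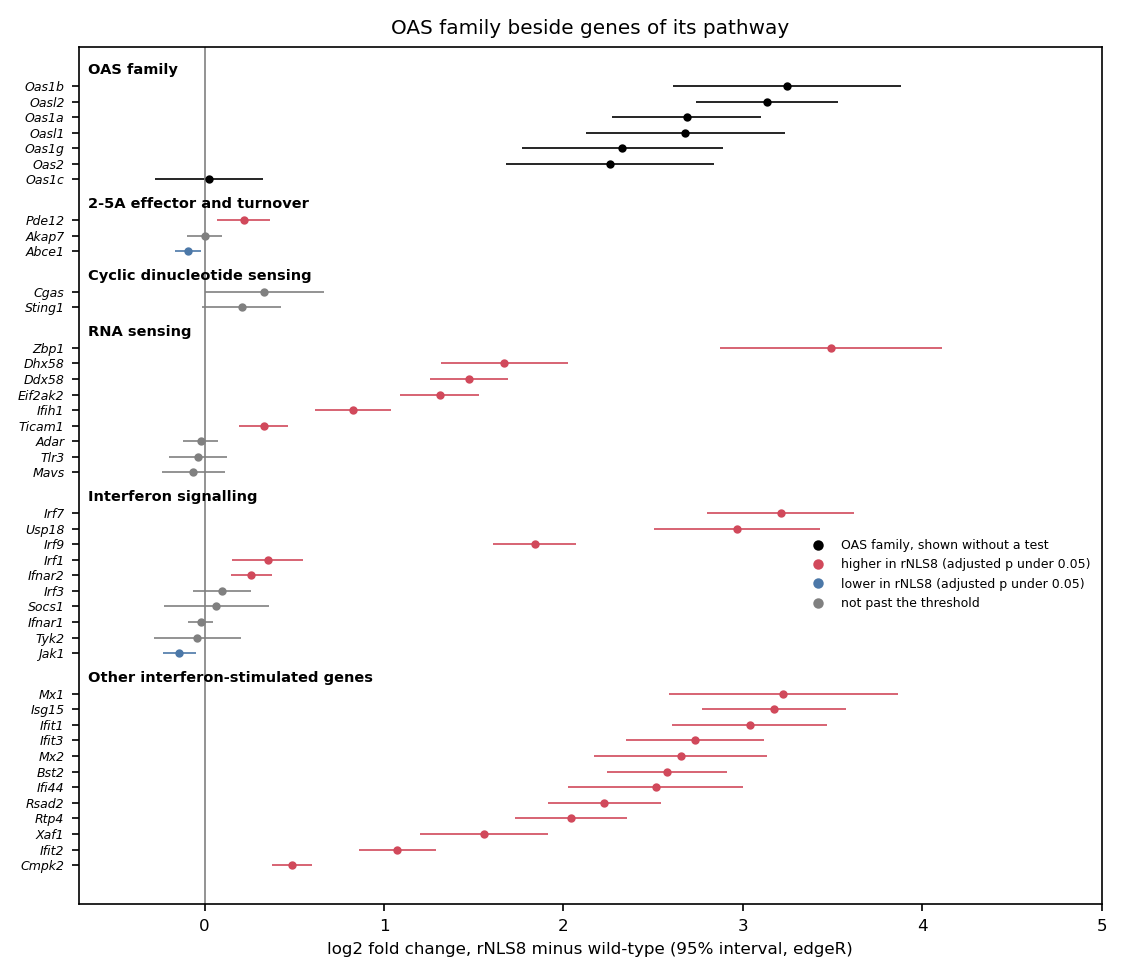
Log2 fold change of rNLS8 over wild-type mice (x axis) with the 95% interval from edgeR for the 7 tested family members (black, shown without a test) and for the lists of pathway genes (red for higher and blue for lower at an adjusted p under 0.05, grey for not past the threshold), with some listed genes not shown. The genes acting on 2-5A lie near 0. Each family member other than Oas1c has an interval overlapping those of some other interferon-stimulated genes. The lowest genes of that list lie below the intervals of all these members.

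Markers of cell types that could hold these transcripts were read beside the members, with the same shares of all genes called. Of 10 microglial markers, 4 rose (Trem2, Tmem119 and Csf1r among them) and 1 fell (P2ry12), a share near the 44.7% of all genes called, with a median log2 fold change of 0.10. Their sum was 389 to 446 CPM in wild-type and 411 to 569 CPM in rNLS8 mice, and among rNLS8 mice it was highest in mouse 8 (569 CPM), next in mouse 9 (505 CPM) and lowest in mouse 1 (411 CPM), the same animals as for the family. The part of microglial number or state in the family values was not tested. Of 6 astrocyte markers 1 rose (Gfap) and 5 fell, and of 6 neuronal markers 4 fell, with sums of 5168 to 6443 CPM in wild-type and 3844 to 5046 CPM in rNLS8 mice. Of the 7 tested markers of border macrophages and monocytes none passed the threshold, and their sum was 8.14 to 14.3 CPM in wild-type and 9.08 to 17.6 CPM in rNLS8 mice. The T cell markers Cd3e and Cd3d had a mean under 1 count per mouse, and of the 2 tested genes of the T and NK cell list Cd4 fell and Trbc2 did not pass. Of 6 oligodendrocyte and 2 OPC markers none passed, and of 5 endothelial markers 1 fell (Flt1). None of the 3 tested markers of other brain regions passed, but the sum of that list of 4 genes was lowest in the rNLS8 mouse with the highest family level and highest in the one with the lowest. It was 27.8, 28.0 and 32.9 CPM in cohort A, lowest in mouse 8, and 52.9 to 99.1 CPM in cohort B, highest in mouse 1. Wild-type mice had 22.3 to 109 CPM, and the part of dissection in the family values was not tested.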

How the data were processed

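Bulk RNA-seq of neocortex was deposited for 21 mice, 1 library each. The paper's methods name brain cortex, whereas a figure legend of the paper gives hippocampus for an rNLS8 cohort of these group sizes. The authors deposited unnormalized counts, as whole numbers, in 1 table with a row for each gene symbol. Per the labels, libraries were made from mRNA and sequenced paired-end, and the methods give alignment to GRCm38. The submitters' processing notes name mm10, HISAT, HISAT2, Bowtie, Bowtie2 and RSEM without roles or versions, and strand use in counting was not given in the sources used here. Of 48474 rows, 13329 had no counts, and 2553 further copies of symbols (none of a member) held 4.11% of counts and were kept. No 2 libraries were identical (210 pairs).

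Here edgeR 4.0.16 was run in R 4.3.3. Genes were filtered within genotype (minimum count 10, minimum total 15), scaled by TMM and tested by the quasi-likelihood test with genotype and cohort in the model, two-sided, with Benjamini-Hochberg adjustment over all 18248 genes (threshold 0.05). Standard errors were derived from the F statistic. Log2 CPM used a prior count of 2. As alternatives, DESeq2 1.42.0 was run with cohort or without it and edgeR without it, as were other scalings and filters, treatment of copy rows, each cohort alone, Xist as covariate (standing for sex) and each mouse left out. A filter by the model with cohort, exon-union lengths, leaving out rNLS8 mice 1, 8 and 9, and the Oas3 count ratio without each mouse were chosen after seeing the data. Procedures were tested on simulated counts. Intervals from counts cover counting error only, since the sources mention no molecular identifiers.

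The members and gene lists were chosen with earlier results of these data known. Named were all members, every gene of lists up to 6, the 4 largest changes among the called genes of longer lists, and the 6 genes most like the family. Other markers that passed the test and Apol9a and Apol9b were named after their values were seen. Some listed genes are not reported here. Positions and promoters are from RefSeq (GRCm38.p6), transcripts from GENCODE.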

Additional observations from a re-analysis of the deposited data

Results flagged for a closer look

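Of 51 sets of values over the 10 rNLS8 mice, those of the members and the listed pathway genes, 3 contained an outlying mouse by Dixon's ratio (the gap to the nearest mouse divided by the range, critical value 0.466 for 10 mice). Chance would give 2.55 such sets. Oas2 was far higher in mouse 8 (ratio 0.615), at 3.10 log2 CPM with the next mouse at 1.24. Oasl2 was far lower in mouse 1 (ratio 0.48), at 3.27 log2 CPM with the next mouse at 4.50. Xaf1, an interferon-inducible regulator of apoptosis, was far higher in mouse 8 (ratio 0.495), at 4.63 log2 CPM with the next mouse at 3.80.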

How the results depend on the processing

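No paired analysis was possible because the labels give the mice no replicate numbers that are shared between genotypes. The direction of the 6 called members was kept under every alternative in which they were tested, with log2 fold changes between 1.89 (Oas2, cohort B alone) and 3.64 (Oasl2, cohort A alone), and 1.87 for Oas2 without rNLS8 mouse 8. With at least 10 counts in every mouse 2 members were left, of which 1 (Oasl2) was called. With no filter, with the filter by the model with cohort and in cohort A alone, Oas3 was tested too, and 7 of 8 members were called. In cohort B alone 5 of 6 were called. Leaving out each mouse gave 5 to 6 called members (5 without wild-type mouse 11, when Oas1g failed the filter) and 5 to 6 members with separate genotypes (6 without rNLS8 mouse 1 or wild-type mouse 10). Cohort A alone moved Oas1c to 0.52, Oasl1 to 3.43 and Oasl2 to 3.64. The number of 2-5A genes that fell (Abce1, 1) became 0 without cohort in edgeR, with library size only, with no filter, in either cohort alone, with Xist as covariate and without rNLS8 mice 1, 8 and 9, and was 0 to 1 on leaving out single mice (0 without wild-type mouse 1, 3, 4, 8, 9, 10 or 11, or rNLS8 mouse 5, 6, 7 or 8). The number that rose became 2 with library size only and 0 in cohort A. For cyclic dinucleotide sensing, 2 rose with library size only, 1 with Xist, and 0 to 1 without single mice (1 without wild-type mouse 5 or rNLS8 mouse 7). The 1 interferon signalling gene that fell became 0 with library size only, in cohort A and without mice 1, 8 and 9. Scaling by library size only shifted the median log2 fold change of all genes by 0.08. The ratio of Oasl2 to the next member in rNLS8 mice was 4.06 per kilobase, 6.73 without division by length and 1.99 with exon-union lengths. With Xist as covariate, the wild-type cohort difference of Oas1c had an unadjusted p of 0.0732 in edgeR. The causes were not tested. Depth limits Oas3, whose wild-type counts were 0 to 3 per mouse, and the interferons, which could not be tested.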
